A study of Homo sapiens with 6 samples.

Results

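The HOX genes and the antisense RNAs of their clusters were examined in HK-2 cells, a human cell line derived from the proximal tubule of the kidney and immortalised with papillomavirus genes. The members are all rows whose symbol is HOXA, HOXB, HOXC or HOXD followed by a number, the antisense RNAs named after these genes or clusters, and *HOTAIR*, *HOTTIP* and *HOTAIRM1*, which made 50 of the 29483 genes in the table. They comprise 34 protein-coding genes and 16 long non-coding RNAs, and 5 symbols that fit this description had no row and were not analysed here. RNA was sequenced in 3 control and 3 case replicates. All 6 libraries came from cells kept in 25 mM high glucose (HG) medium for 7 days and then for 1 further day. No library therefore shows the cells in normal glucose. During the further day, the case replicates also received 10 μM TEPP-46, an activator of the glycolytic enzyme pyruvate kinase M2 (PKM2). The control replicates did not receive it. The study describes the replicates as independent and as treated separately.

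HOX genes encode homeodomain transcription factors that specify position along the head to tail axis of the embryo. They lie in 4 clusters on different chromosomes, and the members are numbered by 13 paralogous groups, with low numbers at the 3′ end, used toward the head, and high numbers at the 5′ end, used toward the tail. Adult epithelial and connective tissue cells keep part of this pattern as a record of where they arose, and members of group 11 are known for their role in forming the permanent kidney. The antisense RNAs start between or across the coding genes, and *HOTAIR*, *HOTTIP* and *HOTAIRM1* are the members best known for acting on chromatin at HOX or other genes.

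The sequence just before the start site is shown for the 2 called members that had an entry among the RefSeq promoters (GRCh38.p14), since these are the members whose level differed between the groups. *HOXB7*, the other called member, had no entry, nor had *HOXB9*. Sequences are given 5′ to 3′ on the strand of the gene, and capitals mark the only match to the motifs searched, the cyclic AMP response element core TGACGT, here read from the other strand as ACGTCA. The 250 bases before *HOXA11* lie at chr7:27185233-27185482 (minus strand), and the 30 bases before *HOXB-AS3* at chr17:48595928-48595957 (plus strand). The latter lie before the RefSeq start site of *HOXB-AS3* (position 48595958), which falls inside the longer span that GENCODE gives this gene.
HOXA11: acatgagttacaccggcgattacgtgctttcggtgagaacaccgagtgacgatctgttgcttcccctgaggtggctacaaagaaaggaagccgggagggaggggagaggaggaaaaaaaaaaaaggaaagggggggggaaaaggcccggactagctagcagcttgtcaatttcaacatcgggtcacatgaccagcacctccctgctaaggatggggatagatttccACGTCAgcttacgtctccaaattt
HOXB-AS3: tacttctaggtagtatgtgctccttccagt

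The match in the *HOXA11* sequence began 24 bases before the start site. The RefSeq start site of *HOXA11-AS*, which is transcribed the other way, lay 176 bases from that of *HOXA11*, within the printed stretch. RefSeq held 33 promoter windows, each of them covering the start site, for 25 of the members. In either strand, 21 of these windows (63.6%) held CCAAT, against 34.6% of all 35116 windows, and 24.2% held the E-box CACGTG, against 7.26%. The other motifs were GGGCGG (39.4% of HOX windows against 45.0% of all), TATAAA (18.2% against 11.5%), TGACGT (9.09% against 7.98%) and the homeodomain core TAATTA (6.06% against 4.84%). TGACGT and CACGTG share the core ACGT, several windows belong to the same gene, and a match describes only the letters in a window.

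The values are FPKM, in which read numbers are corrected for gene length and for library size. For each library, they were divided here by 1 further factor (0.933 to 1.04) so that the typical gene had the same level in all libraries. Levels below are these scaled FPKM. They can be compared between genes with less certainty where exons of members overlap, since the strand setting of the counting is not known. The deposited values also allowed the whole reads of each gene to be recovered, which summed to 18619250, 17908201 and 17363978 for control replicates 1 to 3 and to 16699615, 16034625 and 15352861 for case replicates 1 to 3. Each case library thus had fewer of these recovered reads than any control library. Among all tested genes, the median SD between replicates on the log2 scale was 0.09 for control and 0.19 for case libraries. The study's read statistics divide the libraries in other ways. Case replicates 2 and 3 had a larger share of reads in introns than the other libraries. Control replicate 3 and case replicate 1 had more adapter reads than the rest. The part of these differences in the results below was not tested. In the trend with exon length, case replicate 2 stood apart from the other case replicates. Its log2 difference from the control group ran from a median of 0.09 in the decile of genes with the shortest exons to -0.11 in the decile with the longest, against 0.23 to -0.40 in case replicate 1 and 0.25 to -0.28 in case replicate 3.

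In the control group, the HOX pattern of HK-2 cells was dominated by the HOXB genes of groups 7 and 9. *HOXB7* stood at 24.2 ± 1.06 FPKM and *HOXB9* at 22.0 ± 1.77 (SD, n = 3), and these genes alone held 43.9% of the summed FPKM of the 50 members. No other member exceeded 6.21 ± 1.40, the level of *HOXC9*. The values of *HOXB7* were 22.9, 24.9 and 24.6 FPKM in control replicates 1, 2 and 3, and those of *HOXB9* were 21.1, 20.9 and 24.05. The ranges of the 2 genes overlapped, so their order is within the spread, while both lay above every value of the other members.

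Of the 50 members, 18 reached 1 FPKM in every control replicate, 12 reached 2 and 3 reached 5. By cluster, the summed FPKM in the control group was 62.5 ± 3.92 for HOXB on chromosome 17, 22.4 ± 1.18 for HOXC on chromosome 12, 16.9 ± 1.28 for HOXA on chromosome 7 and 3.50 ± 0.495 for HOXD on chromosome 2 (SD, n = 3). HOXB thus held 59.4% of the summed HOX signal, HOXC 21.2%, HOXA 16.1% and HOXD 3.33%. Most of the HOXD signal came from *HOXD9*, at 2.61 ± 0.418 FPKM, and most of the rest from *HOXD8* (0.490), the antisense RNA *HOXD-AS2* (0.247) and *HOXD1* (0.145). *HOXD10*, a neighbour of *HOXD9* on its 5′ side, had no read in any library, and *HOXD3* and *HOXD13* had 1 read each in all libraries together. In a single library, a count of 0 can still arise where up to about 3 reads are expected.

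**Figure D1:**
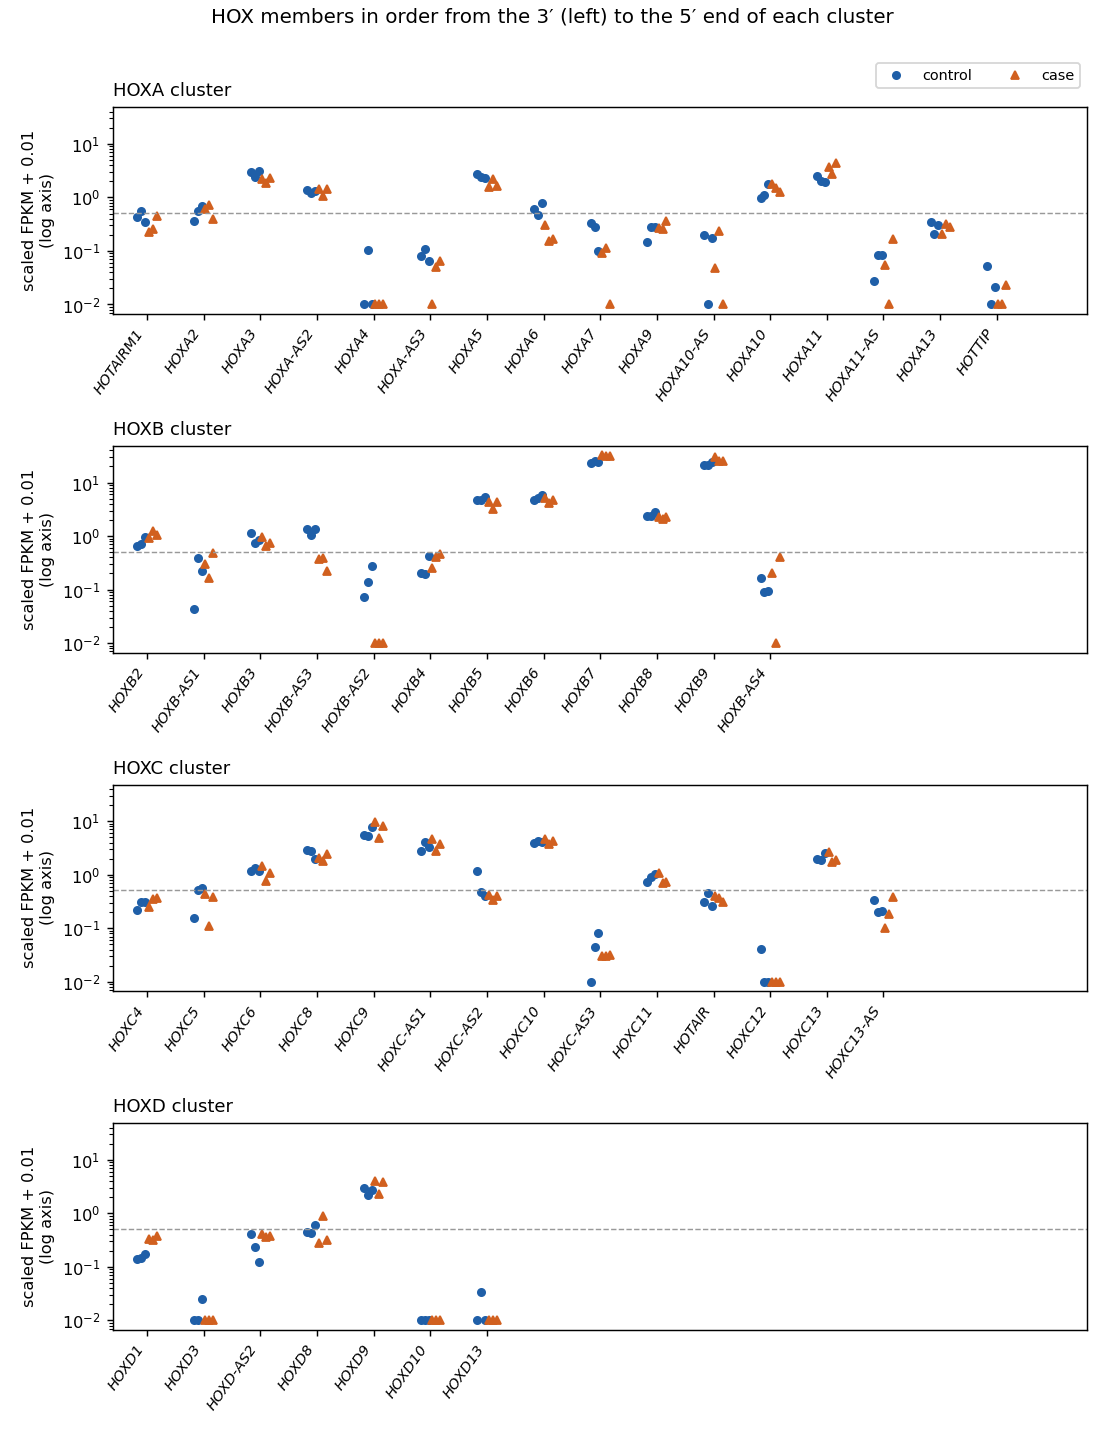
Scaled FPKM (plus 0.01, log axis) of 49 HOX members in each library, with 1 panel per cluster and the members ordered from the 3′ end at the left to the 5′ end at the right. Circles are the 3 control replicates, triangles the 3 case replicates, and the dashed line marks 0.5 FPKM; *HOXB7* and *HOXB9* stand above all others, and members at the bottom of a panel had no read in that library.

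The level did not follow the position in the cluster in a simple way, as the plot of members along their clusters shows. In the HOXA cluster, *HOXA3* was at 2.79 ± 0.376 FPKM and *HOXA5* at 2.47 ± 0.223, while *HOXA7* and *HOXA9* in the middle were at 0.227 ± 0.121 and 0.225 ± 0.0764. The exons of *HOXA7* share 1507 bases with *HOXA-AS3* on the other strand, so its level is less certain. Further toward the 5′ end, *HOXA10* was at 1.28 ± 0.414 and *HOXA11* at 2.15 ± 0.302, but *HOXA13*, the most 5′ coding gene, was at 0.276 ± 0.0696. *HOXA2* was at 0.533 ± 0.169, and the antisense RNA *HOXA-AS2*, whose exons share 455 bases with *HOXA3* on the other strand, was at 1.30 ± 0.0939. In the HOXB cluster, *HOXB6* (5.19 ± 0.566) and *HOXB5* (4.92 ± 0.442) came after the leading genes, ahead of *HOXB8* (2.54 ± 0.265), *HOXB-AS3* (1.24 ± 0.176), *HOXB3* (0.910 ± 0.216) and *HOXB2* (0.767 ± 0.175). *HOXB8* thus stood far below *HOXB7* and *HOXB9*, the genes on either side of it.

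In the HOXC cluster, *HOXC9* led at 6.21 ± 1.40 FPKM, and *HOXC10* was next at 4.12 ± 0.141. The antisense RNA *HOXC-AS1* stood at 3.38 ± 0.644, the highest level of any non-coding member, from only 592 bases of exon and 32 to 45 reads per control library. *HOXC8* (2.49 ± 0.494), *HOXC13* (2.103 ± 0.349), *HOXC6* (1.22 ± 0.0871), *HOXC11* (0.877 ± 0.141) and *HOXC-AS2* (0.668 ± 0.416) made up the rest of the tested HOXC members. *HOXC-AS2* was at 1.15 FPKM in control replicate 1 and at 0.460 and 0.398 in control replicates 2 and 3, so its mean rested on 1 library. *HOXC13*, the most 5′ coding gene of its cluster, which is known from hair and nail, had values that overlapped those of *HOXC8*.

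Read across the clusters, paralogous group 9 held the most signal, with a summed control level of 31.05 FPKM from *HOXB9*, *HOXC9*, *HOXD9* and *HOXA9*. Group 7 followed at 24.4, nearly all of it from *HOXB7*. Groups 5 and 6 came next at 7.79 and 7.02, led by *HOXB5* and *HOXB6*. Group 4 summed to only 0.563 over *HOXA4*, *HOXB4* and *HOXC4*, although the genes of groups 3 and 5 on either side summed to 3.70 and 7.79. The deposited values imply a length of 3757 bases for *HOXB4*, against 2002 exon bases in GENCODE. *HOXC4* shares 484 exon bases with *HOXC6* on the same strand. The part of either in the low sum was not tested. Group 12, represented by *HOXC12*, was at 0.0104 from 2 reads in a single control library. In group 11, *HOXA11* was at 2.15 and *HOXC11* at 0.877, so transcripts of this group were present.

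**Figure D2:**
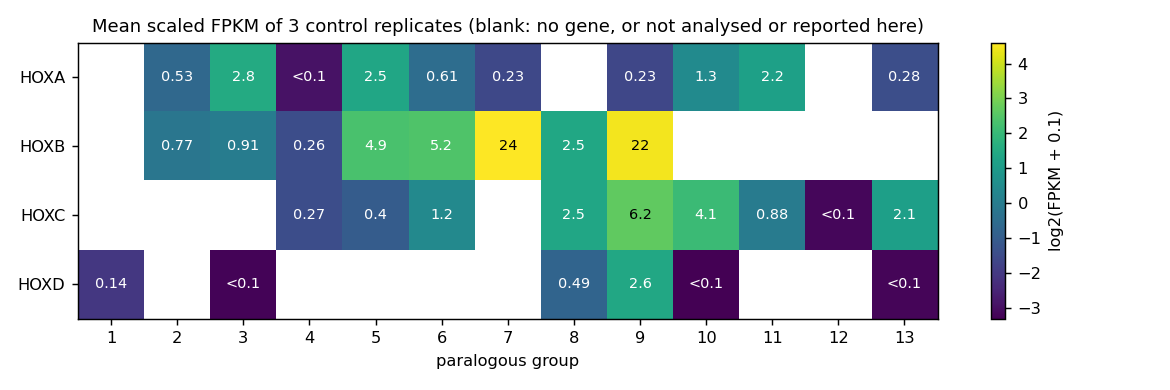
Mean scaled FPKM of the 3 control replicates for the protein-coding HOX genes, by cluster (rows) and paralogous group (columns); colour gives log2(FPKM + 0.1) and the printed number the FPKM itself. The HOXB genes of groups 7 and 9 are the brightest cells, group 4 is low in every cluster shown, and blank cells have no gene or were not analysed or reported here.

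The label of the cells was checked against marker genes. Epithelial markers were abundant, with the keratins *KRT19* at 338 ± 7.28, *KRT8* at 331 ± 11.9 and *KRT7* at 316 ± 66.3 FPKM (SD, n = 3) in the control group, and *EPCAM* at 13.2. Defining markers of the proximal tubule were near 0. Of the 12 with a row, 11 stayed below 0.5 FPKM in all libraries, among them the endocytic receptors *LRP2* (0.00220) and *CUBN* (0.0271), the phosphate transporter *SLC34A1* (0.0393) and the water channel *AQP1* (0.0822), and only *GATM*, an enzyme of creatine synthesis, was tested (3.20 in the control and 2.51 in the case group, adjusted p = 0.0538 by limma, 0.0378 by voom and 0.0192 in TPM). The summed level of the 12 was 4.25, 4.11 and 4.09 in the control and 3.26, 3.27 and 3.28 in the case replicates. These data therefore describe the HOX pattern of an epithelial line labelled as renal proximal tubular in which most defining markers of that segment were at or near 0. Markers of fibroblasts (4 with a row), endothelium (5) and leukocytes (3) all stayed below 0.5 FPKM.

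The comparison of the case with the control group asks how the pattern differed after TEPP-46. Genes whose mean FPKM reached 0.5 were tested with limma on log2(scaled FPKM + 0.1), a scale that understates the change of genes at low levels, and those with a Benjamini-Hochberg adjusted p of at most 0.05 over all 13599 tested genes were taken as DE genes. All log2 fold changes are case minus control. Of the 50 members, 24 were tested and 3 were DE genes, with *HOXB7* and *HOXA11* upregulated and *HOXB-AS3* downregulated. These were 12.5% of the tested members, while 13.2% of all tested genes were DE genes (7.77% upregulated and 5.45% downregulated), so the count of HOX members was close to the background. An unadjusted p under 0.05 was found for 7 members (29.2%) and for 32.9% of all genes. The median log2 fold change was -0.01 over the 24 members and 0.01 over all tested genes, with 10 members above 0 and 14 below. With voom on the recovered reads, the same 3 members were DE genes, against 20.7% of all tested genes.

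**Figure D3:**
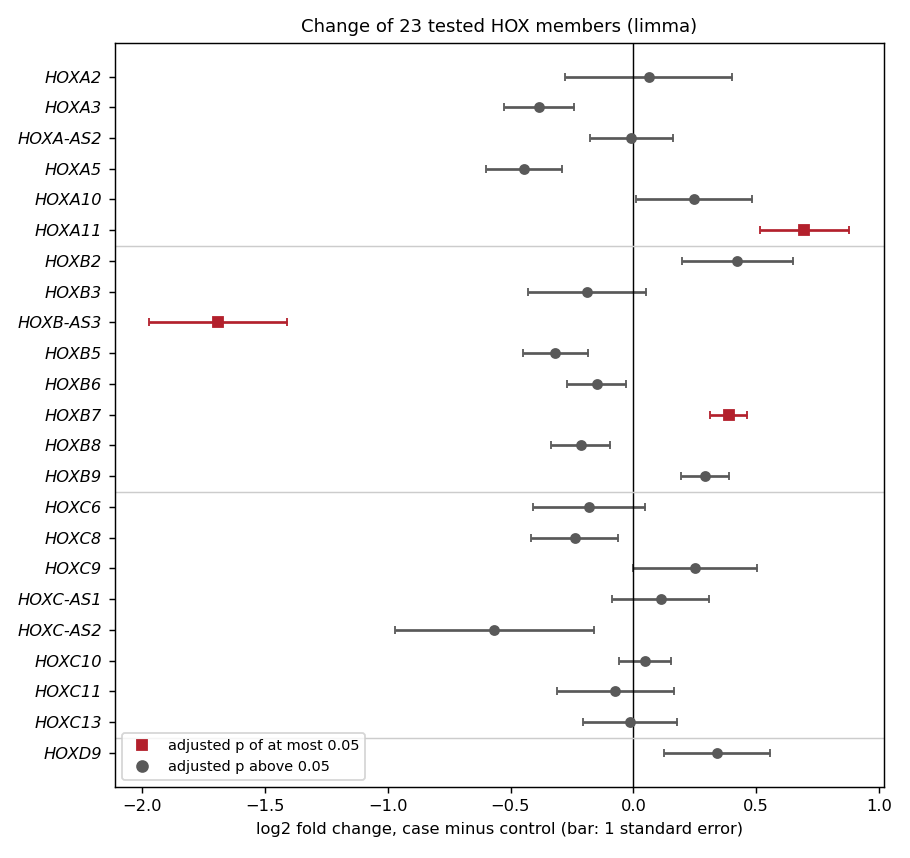
Log2 fold change (case minus control) of 23 tested HOX members by limma, in cluster order, with bars of 1 standard error; red squares have an adjusted p of at most 0.05. *HOXB-AS3* lies far to the left at -1.69, *HOXA11* (0.70) and *HOXB7* (0.39) lie to the right, and most other members are within 0.5 of 0.

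*HOXB-AS3*, an antisense RNA of the HOXB cluster known to encode a small peptide in some cells, had the largest difference among the tested members. It was at 1.36, 1.04 and 1.33 FPKM in control replicates 1, 2 and 3 and at 0.369, 0.386 and 0.208 in case replicates 1, 2 and 3. All case values were below all control values. They were also below 0.5 FPKM, so the gene passed the filter on the mean only through its level in the control group. The reads behind these levels were few, at 50, 37 and 46 in the control and 11, 12 and 6 in the case replicates. The log2 fold change was -1.69 (SE 0.28, adjusted p = 0.0146), a 3.23-fold lower level on this scale. In GENCODE the gene lies at chr17:48549630-48606414 on the plus strand (GRCh38), starts before the RefSeq start site used for the printed sequence, and spans several coding genes of the cluster, which are read from the minus strand. Its exons share 425 bases with those of *HOXB6*, 77 with *HOXB3*, 73 with *HOXB5* and 58 with *HOXB-AS1*. The strand setting of the counting is not given in the sources used here, so reads of *HOXB-AS3* and of these partners cannot be told apart with certainty. *HOXB6*, which also shares 433 exon bases with *HOXB3* on its own strand, differed by -0.15 (SE 0.12, adjusted p = 0.412). The call held in all 15 other settings that tested this gene, but with limma it was lost without any single control replicate (adjusted p 0.0692 to 0.0768), while voom kept it in all 6 such fits (adjusted p 0.00566 to 0.0378).

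*HOXB7*, a homeodomain factor of group 7 and the HOX member with the highest mean level in these cells, was upregulated. Its level was 22.9, 24.9 and 24.6 FPKM in the control and 32.4, 31.0 and 31.5 in case replicates 1, 2 and 3. The groups were well apart, and the case replicates lay close together. The log2 fold change was 0.39 (SE 0.07, adjusted p = 0.0205), or 1.31-fold, from 676 to 771 reads per library. The gene is annotated at chr17:48607232-48633572, a span that encloses *HOXB9*, but their exons share no bases. *HOXB9*, the other abundant gene of the cluster, was at 21.1, 20.9 and 24.05 FPKM in the control and 29.8, 25.6 and 25.6 in the case replicates. These groups did not overlap either, but the difference of 0.29 (SE 0.10) did not pass the threshold (adjusted p = 0.0830). *HOXB9* passed with GC correction (0.27, adjusted p = 0.0362) and with voom without case replicate 2 (0.31, adjusted p = 0.0384).

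*HOXA11*, a group 11 gene of the kind needed for the outgrowth of the ureteric bud in the embryo, was upregulated as well. Its level was 2.50, 2.02 and 1.94 FPKM in control replicates 1, 2 and 3 and 3.67, 2.74 and 4.34 in the case replicates, with 81 to 151 reads per library. The lowest case value was case replicate 2, only slightly above control replicate 1. The log2 fold change was 0.70 (SE 0.18, adjusted p = 0.0427), or 1.62-fold. *HOXA11* (chr7:27181157-27185232, minus strand) shares 726 exon bases with *HOXA11-AS* on the other strand, which had 1, 4 and 4 reads in the control and 2, 0 and 7 in the case replicates. *HOXC11*, the other group 11 gene in the table, differed by -0.07 (SE 0.24, adjusted p = 0.854).

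The calls of the 2 upregulated members were less stable than that of *HOXB-AS3*. Across all tested genes the log2 fold change moved with exon length, from a median of 0.16 in the decile with the shortest exons to -0.27 in the decile with the longest, and 0.18 and 0.17 in the deciles that hold *HOXB7* (1528 bases) and *HOXA11* (2307 bases). With this trend removed, *HOXB7* differed by 0.24 (adjusted p = 0.0733) and *HOXA11* by 0.57 (adjusted p = 0.0605), both no longer past the threshold, while *HOXB-AS3* (1913 bases) differed by -1.83 (adjusted p = 0.0126). In that fit, 7.36% of all tested genes were upregulated and 4.14% downregulated. Of the 16 other settings that kept all libraries, *HOXB7* was called in 13 and *HOXA11* in 10. *HOXA11* was also lost without the filter (0.70, adjusted p = 0.116), without scaling (0.61, adjusted p = 0.0568) and without the intensity trend (0.70, adjusted p = 0.0721). Without case replicate 2 the values were 0.38, 0.85 and -1.83, and all 3 were called. Without case replicate 3, *HOXB7* (adjusted p = 0.0668) and *HOXA11* (0.135) were not called, and without case replicate 1 *HOXA11* was not (0.0731). Without control replicate 1, 2 or 3, limma called 0 of the 24 members, with an unadjusted p under 0.05 for 3, 5 and 6 of them, while it called 0.831%, 0.529% and 0.647% of all tested genes. In the same fits voom called 2, 1 and 1 members, *HOXB-AS3* each time, and 9.12%, 7.62% and 8.63% of all tested genes.

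**Figure D4:**
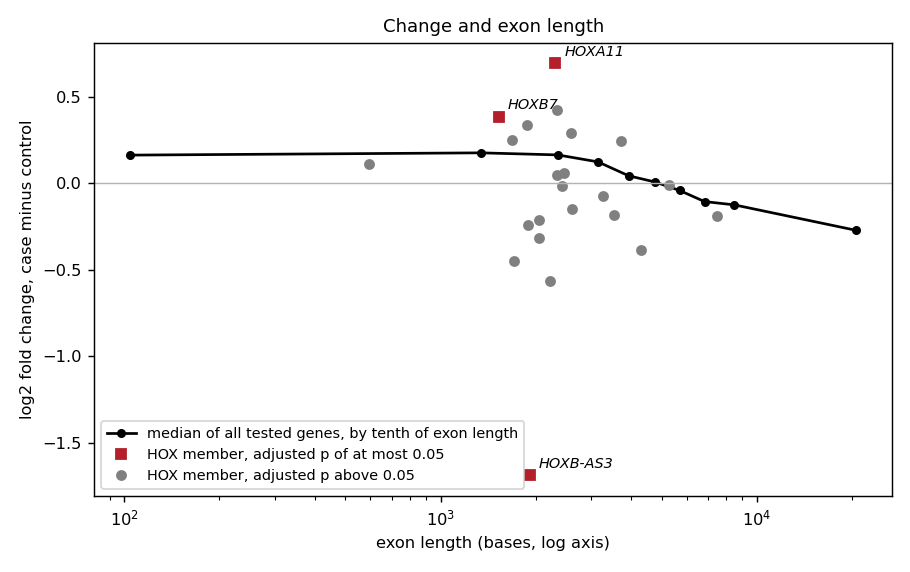
Log2 fold change (case minus control) against exon length in bases (log axis) for 23 tested HOX members, with the line joining the median of all tested genes in each decile of exon length, drawn at the geometric mean of its bounds. The line falls from 0.16 to -0.27, *HOXB7* and *HOXA11* lie above it, and *HOXB-AS3* lies far below it.

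The values of the control and case groups did not overlap for 8 of the 24 tested members (33.3%), against 39.7% of all tested genes. Higher in every case replicate were *HOXB7*, *HOXB9* and *HOXA11* (12.5%, against 20.6% of all), and lower were *HOXB-AS3*, *HOXB5*, *HOXB8*, *HOXA3* and *HOXA5* (20.8%, against 19.2%). *HOXB5* was at 4.65, 4.67 and 5.43 FPKM in the control and 4.31, 3.25 and 4.29 in the case replicates (log2 fold change -0.32, SE 0.13, adjusted p = 0.143). *HOXB8* was at 2.38, 2.40 and 2.85 against 2.25, 2.04 and 2.23 (-0.21, SE 0.12, adjusted p = 0.249). The gap between the groups was small for both genes, and neither passed the threshold. *HOXA3* was at 2.91, 2.36 and 3.08 against 2.21, 1.84 and 2.28 (-0.38, SE 0.14, adjusted p = 0.107). *HOXA5* was at 2.70, 2.45 and 2.26 against 1.58, 2.20 and 1.63 (-0.45, SE 0.16, adjusted p = 0.0912). For *HOXA5*, case replicate 2 was the value nearest to the control group, and without it the gene passed the threshold by limma (-0.61, adjusted p = 0.0188) but not by voom (-0.63, adjusted p = 0.0587). With the length trend removed *HOXB5* passed (-0.45, adjusted p = 0.0388), and in TPM *HOXB5*, *HOXA3*, *HOXA5* and *HOXB-AS3* passed while *HOXB7* (0.17, adjusted p = 0.134) and *HOXA11* (0.49, adjusted p = 0.0738) did not. In that TPM fit, 2.82% of all tested genes were upregulated and 17.6% downregulated, so the 4 downregulated members of 24 were close to the background.

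**Figure D5:**
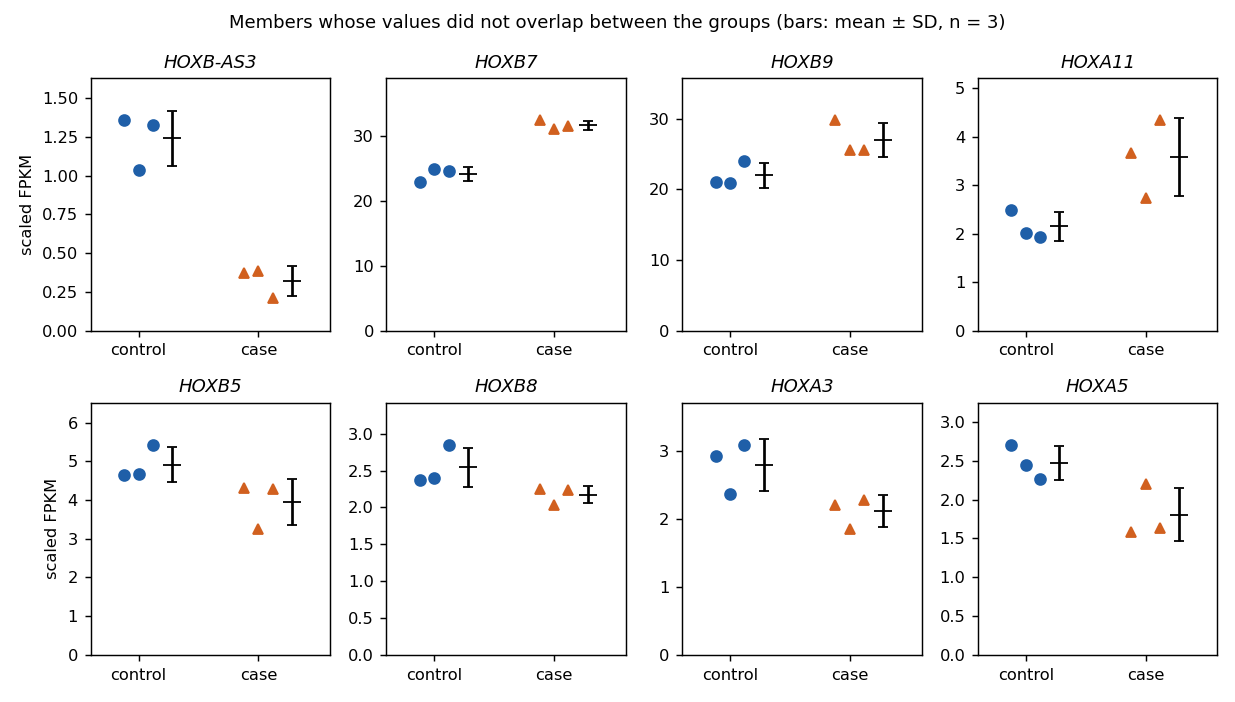
Scaled FPKM in each library of the 8 tested HOX members whose values did not overlap between the groups; each vertical axis starts at 0, circles are control and triangles case replicates, and the bars give the mean ± SD (n = 3). *HOXB7*, *HOXB9* and *HOXA11* are higher and the other 5 members lower in every case replicate, with the widest gap relative to the control mean in *HOXB-AS3*.

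Within the HOXB cluster, the 2 abundant genes and the sum of the rest lay on opposite sides. The summed level of *HOXB7* and *HOXB9* was 44.02, 45.8 and 48.7 FPKM in the control and 62.1, 56.6 and 57.0 in the case replicates. That of the other 10 HOXB members was 15.3, 15.4 and 18.2 in the control and 14.6, 12.3 and 14.6 in the case replicates. Neither pair of ranges overlapped, on this scale, in FPKM as deposited or in TPM (FPKM rescaled to the same sum in each library). The share of *HOXB7* and *HOXB9* in all HOXB signal, which no factor per library can change, was 74.2%, 74.9% and 72.8% in the control and 81.0%, 82.2% and 79.7% in the case replicates. This split was noticed in the values, so it carries no test. Of the other tested coding genes of the cluster, *HOXB6*, *HOXB5*, *HOXB8* and *HOXB3* had log2 fold changes of -0.15, -0.32, -0.21 and -0.19, and *HOXB2* had 0.42 (SE 0.23, adjusted p = 0.226). None of these 5 genes passed the threshold.

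The sum of the whole HOXB cluster was 59.4, 61.2 and 66.9 FPKM in the control and 76.8, 68.9 and 71.6 in the case replicates, which did not overlap, though in TPM the groups did overlap. The sums of HOXC (21.2, 22.2 and 23.6 against 27.6, 17.8 and 24.2) and HOXD (3.93, 2.96 and 3.62 against 4.98, 3.88 and 4.91) overlapped on every scale tried. The sum of HOXA was 17.1, 15.6 and 18.1 against 16.97, 15.0 and 17.5, with overlap on the scale used here and, in TPM, lower values in all case replicates. Case replicate 2 was the lowest library for HOXC and for *HOXC9* (4.87 FPKM, against 9.59 and 8.29 in case replicates 1 and 3).

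None of the 8 tested HOXC members and *HOXD9* passed the threshold by limma or by voom over all libraries, and none had an unadjusted p under 0.05 by limma. *HOXC9* differed by 0.25 (SE 0.25, adjusted p = 0.527) and *HOXD9* by 0.34 (SE 0.22, adjusted p = 0.304). *HOXD9* was at 2.97, 2.15 and 2.71 FPKM in the control and 3.98, 2.33 and 3.86 in the case replicates, and without case replicate 2 it passed the threshold (0.56, adjusted p = 0.0379 by limma, and 0.58, adjusted p = 0.0362, by voom). *HOXC9* passed there by voom alone (0.53, adjusted p = 0.0395). *HOXC8* (-0.24) and *HOXC6* (-0.18) were below 0 with SE of 0.18 and 0.23. *HOXC10*, *HOXC13* and *HOXC11* differed by 0.05, -0.01 and -0.07. The sign of *HOXC10* turned in TPM and in FPKM without further scaling, and that of *HOXC13* under quantile normalization. Of the antisense RNAs of this cluster, *HOXC-AS1* differed by 0.11 (SE 0.20), with a turn of sign in TPM, and *HOXC-AS2* by -0.57 (SE 0.41, adjusted p = 0.362), which rested on the high value in control replicate 1. *HOXC-AS1* was at 2.80, 4.07 and 3.26 FPKM in the control and 4.55, 2.80 and 3.70 in the case replicates, so the groups overlapped widely.

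The remaining HOXA members did not pass the threshold. *HOXA-AS2* differed by -0.01 (SE 0.17), with a turn of sign under quantile normalization. *HOXA2* differed by 0.06 (SE 0.34) from 14 to 31 reads per library, with a turn of sign in TPM and without further scaling. *HOXA10* differed by 0.25 (SE 0.23, adjusted p = 0.499).

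The other 26 members were below the filter and were not tested. In the HOXA cluster these were *HOTAIRM1*, *HOXA4*, *HOXA-AS3*, *HOXA6*, *HOXA7*, *HOXA9*, *HOXA10-AS*, *HOXA11-AS*, *HOXA13* and *HOTTIP*. In the HOXB cluster they were *HOXB-AS1*, *HOXB-AS2*, *HOXB4* and *HOXB-AS4*, in the HOXC cluster *HOXC4*, *HOXC5*, *HOXC-AS3*, *HOTAIR*, *HOXC12* and *HOXC13-AS*, and in the HOXD cluster *HOXD1*, *HOXD3*, *HOXD-AS2*, *HOXD8*, *HOXD10* and *HOXD13*. The highest control mean among them was 0.612 FPKM, of *HOXA6*, and 9 had at most 4 reads in every library. *HOTAIR*, the best studied HOX antisense RNA, had 15, 22 and 12 reads in the control and 16, 15 and 12 in the case replicates. *HOTAIRM1* had 12, 15 and 9 reads against 5, 6 and 10, and *HOTTIP* at most 4 in any library. At this depth, a difference in these RNAs was not detectable unless it was large.

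Of the untested members, 3 had groups that did not overlap, and these are given as values only. Among all untested genes above 0, 9.03% had groups that did not overlap. *HOXA6* had 15, 11 and 18 reads in the control and 6, 3 and 3 in the case replicates, with a mean of 0.612 FPKM against 0.199. Its exons share 505 bases with *HOXA-AS3*, which had 8, 11 and 6 against 0, 4 and 5 reads. *HOXD1* had 5, 5 and 6 reads in the control and 10, 10 and 11 in the case replicates. *HOXB-AS2* had 1, 2 and 4 reads in the control replicates and none in the case replicates. In a single library, a count of 0 can still arise where up to about 3 reads are expected.

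Genes that act with HOX proteins or on their clusters were read from the same fit, as counts. Of the 12 TALE homeodomain genes and related factors, which include the DNA binding partners of HOX proteins, 9 were tested. Of these, 1 was a DE gene, against 13.2% of all tested genes, a background that also holds for the lists below. This DE gene was *TGIF1*, which rose from 11.9 ± 0.581 to 17.4 ± 0.878 FPKM (log2 fold change 0.54, SE 0.08, adjusted p = 0.0132). The most abundant genes of the list beside it were *PBX2* (15.4 FPKM, -0.17, adjusted p = 0.444) and *PBXIP1*, which binds PBX proteins (13.6 FPKM, -0.01, adjusted p = 0.944). *MEIS1* was at 0.0994 FPKM in the control group and was not tested. *PBX3*, a PBX gene like *PBX2*, was at 6.77 FPKM.

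Polycomb genes, which keep HOX clusters silent, numbered 30 and all were tested. Of these, 3 were upregulated and 1 downregulated, against 7.77% and 5.45% of all tested genes. The count was thus close to the background. The upregulated ones were *PHC2* (47.7 to 67.4 FPKM, log2 fold change 0.49, adjusted p = 0.0212), *PCGF1* (8.37 to 11.9, 0.49, adjusted p = 0.0412) and *EZH2*, the histone methyltransferase of the complex (15.1 to 19.2, 0.34, adjusted p = 0.0275). *PHC1* fell from 3.47 to 2.43 FPKM (-0.51, adjusted p = 0.0462). *RING1* (0.30, adjusted p = 0.187) and *BMI1* (-0.01, adjusted p = 0.952) were abundant and did not pass. With the length trend removed, *PCGF1* (0.38, adjusted p = 0.0636) and *PHC1* (-0.44, adjusted p = 0.0562) did not pass, while a gene not called in the main fit did. That fit had 3 Polycomb genes upregulated and 0 downregulated, against 7.36% and 4.14% of all tested genes. In TPM *PCGF1* (0.28, adjusted p = 0.106) and *EZH2* (0.13, adjusted p = 0.301) did not pass. In TPM, 1 Polycomb gene was upregulated and 5 were downregulated, against 2.82% and 17.6% of all tested genes. With voom, 3 were upregulated and 6 downregulated, against 9.57% and 11.1% of all.

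Trithorax and other activating genes, which keep HOX genes on, numbered 19 and all were tested. Of these, 1 was upregulated and 4 were downregulated, against 7.77% and 5.45% of all tested genes. *KMT2D* fell from 5.30 to 2.41 FPKM (log2 fold change -1.17, SE 0.24, adjusted p = 0.0223), *KMT2A* from 2.76 to 1.54 (-0.86, SE 0.23, adjusted p = 0.0469), *HCFC1* from 18.9 to 12.9 (-0.56, adjusted p = 0.0227) and *KMT2B* from 5.70 to 4.28 (-0.41, adjusted p = 0.0392). *DPY30*, a core subunit of the KMT2 complexes, rose from 17.3 to 22.2 (0.36, adjusted p = 0.0389). *WDR5*, *MEN1* and *MLLT1* (31.2, 25.0 and 21.8 FPKM in the control group) differed by 0.26, -0.19 and 0.01 and did not pass. The downregulated genes have long exons, from 9004 bases in *HCFC1* to 21961 in *KMT2A*, and with the length trend removed only *KMT2D* passed the threshold (-0.77, adjusted p = 0.0324). With voom, 1 gene of this list was upregulated and 7 were downregulated, against 9.57% and 11.1% of all tested genes. In TPM, 0 were upregulated and 8 downregulated, against 2.82% and 17.6% of all.

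Retinoic acid, which induces HOX genes in the embryo, acts through genes of which 10 were tested and none was a DE gene. The most abundant were *CRABP2*, a carrier of retinoic acid (33.4 FPKM, -0.24, adjusted p = 0.237), the receptor *RXRB* (15.9, 0.27, adjusted p = 0.151) and the receptor *RARG* (15.2, -0.29, adjusted p = 0.0524). With limma, 4 of the 10 had an unadjusted p under 0.05, against 32.9% of all tested genes. With voom *DHRS3* was upregulated (0.41, adjusted p = 0.0402) and *RARG* downregulated (-0.31, adjusted p = 0.0294), against 9.57% and 11.1% of all. In TPM, where 17.6% of all were downregulated, *RARG*, *CRABP2*, *CYP26B1* and *RXRA* were downregulated (adjusted p 0.00977 to 0.0443). The CDX factors, activators of the central HOX genes, were near 0 (*CDX1* 0.0105 and *CDX2* 0.0214 FPKM). *GMNN*, *CTCF* and *GDF11*, which affect HOX activity or cluster boundaries, were at 22.5, 14.6 and 4.33 FPKM and differed by 0.32 (adjusted p = 0.0640), -0.23 (0.118) and -0.10 (0.478). With *NR6A1*, 4 genes of this kind were tested, of which 2 had an unadjusted p under 0.05 by limma and 0 were DE genes by limma or voom, while *CTCF* passed in TPM (-0.44, adjusted p = 0.0329).

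Genes that flank the clusters were read for differences beyond their borders. Of 14 tested, 1 was upregulated and 1 downregulated, against 7.77% and 5.45% of all tested genes. *MTX2*, next to the HOXD cluster, rose from 24.2 to 33.1 FPKM (log2 fold change 0.45, SE 0.09, adjusted p = 0.0206), and *CBX5*, beside HOXC, fell from 6.43 to 4.21 (-0.62, SE 0.14, adjusted p = 0.0319). With the length trend removed, neither passed (0.31 and -0.30, adjusted p 0.0566 and 0.0689). In TPM, none was upregulated and 3 were downregulated, *CBX5*, *CALCOCO1* and *HNRNPA1*. In that fit, 2.82% of all tested genes were upregulated and 17.6% downregulated. *HNRNPA1* (237 FPKM, -0.11) and *HIBADH* (36.9 FPKM, 0.22) did not pass the threshold on the scale used here.

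Transcription factors of the kidney lineage were low or absent for the most part. Of 13 with a row, 5 were tested, 1 had an unadjusted p under 0.05 by limma and 0 were DE genes by limma or voom. *SIX2*, a factor of kidney progenitors, was at 1.65 FPKM in the control and 1.24 in the case group (-0.39, adjusted p = 0.0959), and passed with the length trend removed (-0.51, adjusted p = 0.0388) and in TPM (-0.59, adjusted p = 0.03001). *LHX1*, a gene of the early kidney, was at 2.35 FPKM in the control group, with a log2 fold change of -0.01 (SE 0.13, adjusted p = 0.975). *PAX2* and *PAX8*, factors of the embryonic kidney and of adult tubules, were at 0.0226 and 0.0772 FPKM.

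Some markers of other kidney cells were lower in the case group. Of the 8 genes of other tubule segments with a row, 7 stayed below 0.5 FPKM and the water channel *AQP3* fell from 9.29 to 4.47 FPKM (log2 fold change -1.06, adjusted p = 0.0104). The sum of the list was 9.54, 10.3 and 9.17 in the control and 5.28, 5.48 and 3.66 in the case replicates. Of the 3 podocyte genes with a row, *SYNPO*, the most abundant, fell from 19.2 to 12.7 FPKM (-0.61, adjusted p = 0.0289) and *PODXL* from 2.46 to 1.57 (-0.61, adjusted p = 0.0317), while *NPHS1* was at 0.0523 in the control group, and the sum was 20.9, 22.1 and 22.2 against 16.1, 15.4 and 11.5. With the length trend removed *SYNPO* did not pass (-0.41, adjusted p = 0.108), while *PODXL* (adjusted p = 0.0423), *AQP3* (0.00984) and *CDH1* (0.0165) did. The epithelial cadherin *CDH1* fell from 3.29 to 2.097 FPKM (-0.63, adjusted p = 0.0157) as the only DE gene of 6 epithelial markers, whose sum was 1189, 1126 and 1248 against 1386, 948 and 1069. The part of these shifts in the HOX differences was not tested.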

How the data were processed

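RNA of 3 control and 3 case replicates of HK-2 cells was analysed from the FPKM values that the authors deposited, 1 column per library. Per the submitters' processing notes, reads were aligned to GRCh38.p13 with HISAT2 2.1.0 and counted on genes with HTSeq 0.6.0, and the counts were converted to FPKM by gene length and library reads. The selection of RNA, the strand setting and the annotation version are not given in the sources used here. The values are whole multiples of the worth of 1 read, so reads were recovered for all 27922 genes above 0 within 0.002 reads, for 27042 from the values alone and for 880 with the exon length. These reads carry no molecular identifiers, and counts cover counting error only. Symbols were matched for 29063 identifiers, with positions and exons from GENCODE 44.

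Libraries were scaled by median-of-ratios factors. Genes whose mean deposited FPKM reached 0.5 were compared with limma 3.58.1 (R 4.3.3) on log2(value + 0.1), with an intensity trend and without covariates. The Benjamini-Hochberg adjustment ran over all tested genes. The exact permutation test of 3 against 3 libraries cannot go below 0.1 and was not used. The fit was tested on simulated data that had 1 spread setting for both groups and no trend with exon length. The real data differ in both, so that test cannot bear on single calls. Some genes of the lists and 1 HOX member are counted but not reported here. Named are the other HOX members, and of each pathway list the DE genes and the 3 genes with the highest mean, with other genes named after their values were seen (among them PBX3, MEIS1, NR6A1, PAX2, PAX8 and markers). Members and lists were chosen with earlier results of these data known. Alternatives were pseudocounts of 1 and 0.01, no filter, a minimum mean FPKM of 1, no scaling, quantile normalization, TPM, no intensity trend, robust estimation, GC correction, the replicate number as a block, voom on the recovered reads and leaving out each replicate. A correction for exon length and voom with the block or without each replicate were added after the data were seen.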

Additional observations from a re-analysis of the deposited data

How the results depend on the processing

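Over all genes, the number of DE genes (1797, of which 1056 upregulated and 741 downregulated) moved to 524 without the filter, 2770 in TPM, 880 without the intensity trend, 3223 with GC correction, 2813 with voom, 946 with the replicate block and length correction and 3357 with voom and the block. It ran from 72 to 3493 without single replicates in limma and from 898 to 4317 in voom, in both highest without case replicate 2. The split was 662 up and 1124 down without scaling, 873 and 895 with quantile normalization, 1302 and 1511 with voom, and 383 and 2387 in TPM, where the median log2 fold change of all genes was -0.19. The number of HOX DE genes (3) was 5 (20.8% of those tested, against 19.3% of all genes) with the block and GC correction. With the block and length correction it was 1 (4.17% against 6.96%). Without single replicates it ran from 0 to 5 in limma and from 1 to 6 in voom. Both highest numbers came without case replicate 2, at 20.8% against 25.7% of all genes in limma and 25.0% against 31.7% in voom. In limma without case replicate 3, the number was 1 (4.17% against 1.34%). Detected in every control replicate were 36 members at 0.1 FPKM, against 18 at 1 FPKM. Replicate numbers did not pair the libraries (same-number correlations 0.06, 0.10 and -0.05), and the block alone kept *HOXB7*, *HOXA11* and *HOXB-AS3* as DE genes, with 1698 over all genes. *HOXB-AS3* was not tested at a mean FPKM of at least 1.

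Of 638 single-gene values under alternatives, 556 kept direction and side of the threshold, 28 lost the threshold, 12 passed it and 42 turned in sign. With length correction, with or without the block, *HOXA-AS2* was at 0.023, *HOXA2* at -0.056, *HOXC-AS1* at -0.048 and *HOXC10* at -0.075. With quantile normalization, *HOXA-AS2* was at 0.054 and *HOXC13* at 0.048. In TPM, *HOXA2* was at -0.12, *HOXC-AS1* at -0.098 and *HOXC10* at -0.16, and without scaling *HOXA2* was at -0.015 and *HOXC10* at -0.042. Without single replicates, in limma and voom together, the range was -0.095 to 0.11 for *HOXA-AS2*, -0.18 to 0.33 for *HOXA2*, -0.058 to 0.28 for *HOXC-AS1*, -0.030 to 0.11 for *HOXC10*, -0.28 to 0.026 for *HOXC11*, -0.21 to 0.10 for *HOXC13* and -0.43 to 0.021 for *HOXC6*. The causes were not tested. With only 6 to 50 reads per library for *HOXB-AS3*, its level is known with a large counting error.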
